A study of Danio rerio with 20 samples.

Results

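Cytosines followed by guanine (CpGs) are the main sites of DNA methylation in vertebrates. Maintenance methyltransferases such as Dnmt1 copy the marks of the parental strand onto the new strand at replication, and neighbouring CpGs in vertebrate genomes often hold similar levels. A gonad is a mixed tissue of germ cells and somatic support cells, so the methylation level of a bulk gonad sample is an average over cell types and over both parental alleles. Lipopolysaccharide (LPS) is an outer membrane component of Gram-negative bacteria that sets off innate immune responses in vertebrates, fish included.

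The 9 CpGs described here lie in 1 amplicon on zebrafish chromosome 10, between positions 44956550 and 44956872 of the GRCz11 build, a range of 323 bp. They were taken by position and by coverage, as the CpGs of that range that reached 10 reads in 4 or more of the 5 samples in every group, and they are 9 of the 135 CpGs in the series that met this coverage rule. The rule itself uses no methylation level, though it was set with earlier results of these data known. Their positions are 44956550, 44956563, 44956574, 44956589, 44956616, 44956641, 44956647, 44956825 and 44956872. The first 7 fall within 98 bp, the eighth follows 178 bp further on, and the ninth 47 bp after the eighth. No gene, exon or intron is assigned to the amplicon, because the annotation at hand belongs to another build.

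The study measured methylation by bisulfite sequencing of PCR amplicons from gonads of AB strain zebrafish, laboratory reared and 90 days old. Bisulfite turns unmethylated cytosine into uracil, read as T, while methylated cytosine is read as C, so a level is the percentage of reads with C. The 4 groups, of 5 samples each, were 3H LPS, 3H control, 6H LPS and 6H control. The LPS came from Pseudomonas aeruginosa and, as labelled, was given to larvae, while the age given for the fish is 90 days. What 3H, 6H and the L number that LPS and control samples share in their titles stand for, the fish's sex and whether each sample came from a separate fish are not stated in the labels. The spread behind each p-value is thus that of the samples as deposited and may in part be technical. The labelled tissue was not checked against marker genes, since no gene is assigned to the amplicons here.

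The libraries held 419055 to 2046055 methylation calls, of which this amplicon took between 1.66% and 12.1%. The median number of reads per CpG ran from 1993 to 3819 in 3H LPS samples, from 3439 to 12206 in 3H control samples, from 2160 to 11313 in 6H LPS samples and from 6651 to 27409 in 6H control samples. The LPS samples were thus on the whole more shallowly covered than the controls of their own set, with overlapping ranges. Within 1 sample the 9 CpGs differed in read number by at most 0.651%, so the 9 levels of a sample come from nearly the same number of reads. At these depths counting error is small, with a standard deviation (SD) from counting of 0.709 percentage points over the first 7 CpGs. Intervals and limits given for single samples cover counting error only, since PCR reads without molecular identifiers are not independent molecules.

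Another 10 positions of the amplicon had reads in some samples but missed the coverage rule, and none of their 595 reads in all was methylated. Of these, 8 lie between the member CpGs and held 63 reads together, with at most 7 in a sample. The nearest to passing was position 44956948, 76 bp beyond the ninth CpG, with 428 reads over all samples and 0 methylated. For such reads this allows a level of up to 0.701%. Position 44956948 reached 10 reads in 2 of 5 samples of 3H LPS, 5 of 5 of 3H control, 4 of 5 of 6H LPS and 5 of 5 of 6H control. It held at most 77 reads in a sample, far fewer than any member CpG. Whether the sparse reads at these 10 positions come from the same amplified molecules was not tested.

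The 9 CpGs fell into 3 kinds. The first 7 were of intermediate level, the eighth was almost fully methylated, and the ninth took one of 2 widely separated levels in each sample. Over all 20 samples the first CpG, 44956550, averaged 59.5% methylated reads (SD 3.27), and the second, 44956563, averaged 58.3% (SD 3.88). The third, 44956574, stood at 65.0% (SD 4.54) and the fourth, 44956589, at 52.4% (SD 3.53). The fifth to seventh stood at 68.4% (44956616, SD 4.07), 69.1% (44956641, SD 4.32) and 66.9% (44956647, SD 4.11). The eighth, 44956825, averaged 94.0% (SD 1.34). The SD between samples was 4.50 to 6.45 times the counting SD at the first 7 CpGs and 3.83 times at the eighth, so these samples differed by more than the counting of reads gives.

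The shape of the profile was shared by the samples. Position 44956589 was the lowest of the first 7 CpGs in 20 of 20 samples. Position 44956641 was the highest in 13 samples, and 44956616 in the other 7. From each CpG to the next, the level changed by -1.18 points between the first and second (SD 1.61 over samples), and 5 of 20 samples went the other way. The step was 6.75 points from the second to the third CpG (SD 1.78), -12.6 points from the third to the fourth (SD 1.64) and 16.0 points from the fourth to the fifth (SD 1.63). Each of these 3 steps had the same sign in 20 of 20 samples. The CpGs of the largest such step, 44956589 and 44956616, lie 27 bp apart. The step from 44956616 to 44956641 was small, at 0.696 points (SD 1.33), and was positive in 13 of 20 samples. From 44956641 to 44956647, only 6 bp on, the level was lower in 20 of 20 samples, with a mean change of -2.22 points (SD 1.12). The eighth CpG stood above the seventh in 20 of 20 samples, by 27.1 points on average (SD 3.42).

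**Figure D1:**
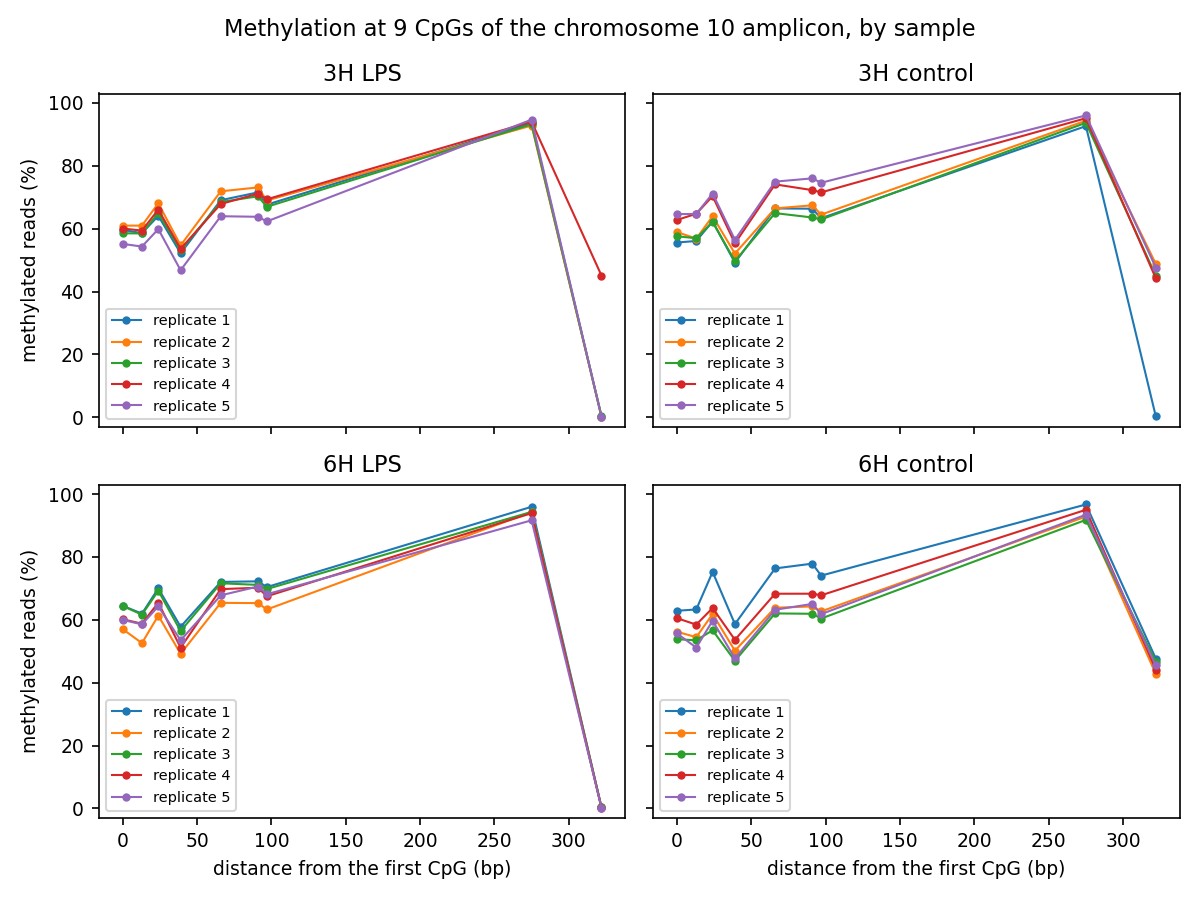
Percentage of methylated reads (vertical axis) at the 9 CpGs against distance from the first CpG in bp (horizontal axis), with 1 line per sample and 1 panel per group; line colours give the replicate number within a group. In all 4 panels the first 7 CpGs repeat the same low point at the fourth CpG and the eighth lies above 90%, while the ninth is near 45% or near 0%.

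Levels varied between samples mainly as a shift of all 7 CpGs together. The mean of the 7 in a sample held 93.2% of the variation between samples at these CpGs. Sample means had an SD of 3.85 points, and what remained after subtracting the sample mean and the CpG mean had an SD of 1.12 points, against a counting SD of 0.709. The largest single remainder was -3.54 points, at 44956550 in 6H control replicate 1. That library had the highest mean of all 20 samples, 69.8%, and 6H control replicate 3 the lowest, 56.5%.

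The mean of the first 7 CpGs, replicates 1 to 5, was 63.2%, 65.5%, 63.0%, 63.9% and 58.0% in the 3H LPS samples, against 59.9%, 61.4%, 59.7%, 67.3% and 68.9% in the 3H control samples. In the 6H set it was 67.0%, 59.2%, 66.3%, 63.3% and 63.3% in LPS samples, against 69.8%, 59.1%, 56.5%, 63.0% and 57.8% in control samples. The ranges overlapped in both sets. The highest sample of each set was a control, and in both the LPS samples spread less than the controls. Group means were 62.7% ± 2.82 in 3H LPS, 63.4% ± 4.35 in 3H control, 63.8% ± 3.11 in 6H LPS and 61.2% ± 5.37 in 6H control (SD, n = 5 each). No test was made of this mean over CpGs or of its spread. In bulk tissue a change in the share of cells of a type and a change of level within cells cannot be told apart.

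**Figure D2:**
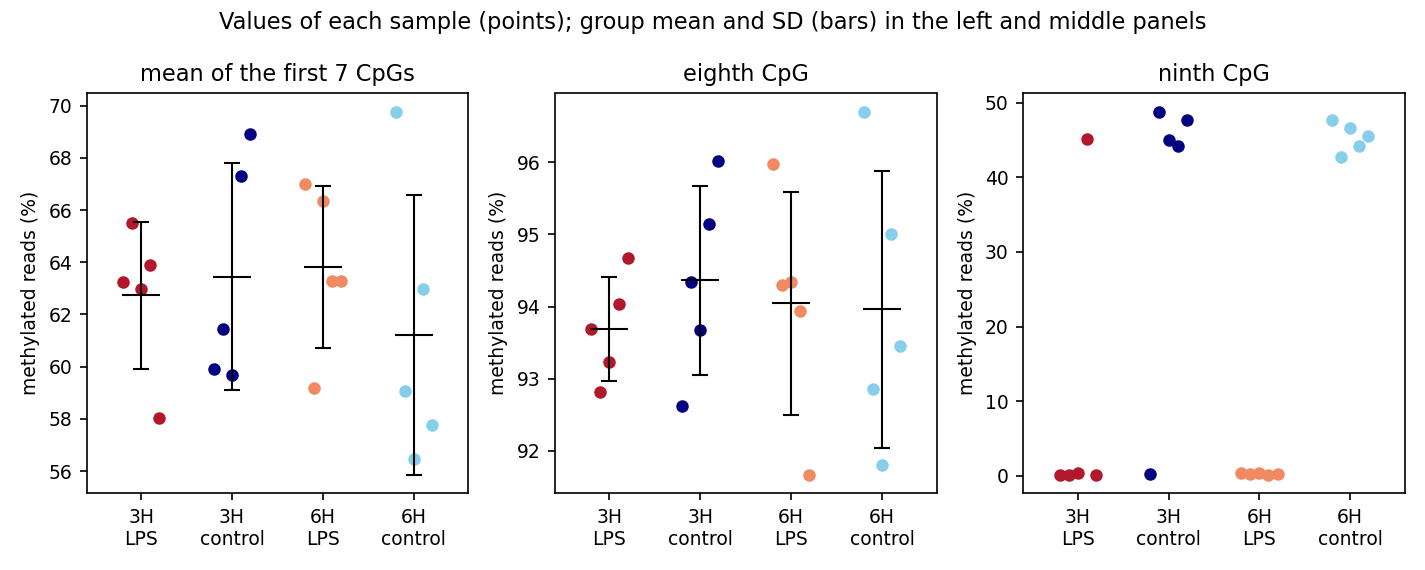
Percentage of methylated reads (vertical axes) by group for the mean of the first 7 CpGs, the eighth CpG and the ninth CpG; each point is 1 sample, and in the left and middle panels the bars give the group mean and SD. The vertical scales of the left and middle panels do not start at 0. Groups overlap in the left and middle panels, while at the ninth CpG 6H LPS samples lie at 0.186% to 0.337% and 6H control samples at 42.8% to 47.7%.

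The first comparison asked whether gonad methylation differed between LPS and control fish in the 3H set. None of the 9 CpGs passed an adjusted p of 0.05 (edgeR's quasi-likelihood test with Benjamini-Hochberg adjustment over 135 CpGs), where 0.0% of all CpGs tested were called. limma also called 0 of 135, and 1 of the 9 CpGs, the ninth, had an unadjusted edgeR p under 0.05, against 10.4% of all CpGs. The exact permutation test called 0 of 135 too, but with 5 samples against 5 its p cannot go below 0.00794. For a single CpG that does not survive adjustment over 135, so this 0 is no separate evidence. The difference (LPS minus control) was below 0 at 8 of 9 CpGs, with a median of -1.04 points over the 9 and -0.212 points over all 135. At the first 8 CpGs it lay between -1.52 and 0.852 points, with adjusted p from 0.838 to 0.968 (edgeR).

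The first CpG, 44956550, shows how the 3H groups lay at an intermediate site. Its level was 59.6%, 61.0%, 58.5%, 60.0% and 55.1% in 3H LPS replicates 1 to 5, against 55.6%, 58.9%, 57.6%, 62.8% and 64.6% in 3H control replicates 1 to 5. The groups overlapped, with controls 4 and 5 above every LPS sample and LPS replicate 5 below every control. The difference was -1.04 points, with a 95% interval of -6.08 to 3.37 obtained by inverting the exact permutation test. At the lowest of the 7, 44956589, 3H LPS samples held 52.1%, 54.7%, 53.1%, 53.6% and 46.8%, against 49.2%, 52.1%, 49.7%, 55.3% and 56.4% in 3H control samples. Here too 3H LPS replicate 5 was the lowest of the set and controls 4 and 5 the highest, and the difference was -0.48 points (95% interval -5.31 to 3.98 from the exact permutation test). Position 44956641 was the 1 CpG with a difference above 0, at 0.852 points (95% interval -5.70 to 6.83 from the exact permutation test).

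In the 6H set 1 of 9 CpGs was called by edgeR, the ninth, and it was the only call among all 135 CpGs tested (0.741%). The same CpG was the only one of the 9 with an unadjusted p under 0.05, where 7.41% of all 135 had one. At the first 8 CpGs LPS samples stood above controls on average by 0.0783 to 3.39 points, and no difference passed the test, with adjusted p from 0.977 to 1 (edgeR). The median difference over the 9 CpGs was 2.47 points, and over all 135 CpGs it was 0.11 points. Since the first 7 CpGs moved together from sample to sample, their common sign is not 7 separate observations.

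The largest of these differences was at 44956550, with 64.5%, 57.1%, 64.4%, 60.2% and 60.0% in 6H LPS replicates 1 to 5, against 62.9%, 56.2%, 53.8%, 60.5% and 55.7% in 6H control replicates 1 to 5. LPS replicates 1 and 3 were the highest and control replicate 3 the lowest, and the groups overlapped. The difference was 3.39 points (95% interval -2.70 to 8.72 from the exact permutation test; adjusted p = 0.977, edgeR). At 44956589 the 6H LPS samples held 57.8%, 49.2%, 56.4%, 51.2% and 53.5%, against 58.7%, 50.2%, 47.0%, 53.6% and 47.7% in 6H control samples. Control replicate 1 was above every LPS sample there, and the difference was 2.18 points (95% interval -4.45 to 8.55 from the exact permutation test). At 44956641 the 6H LPS samples held 72.2%, 65.3%, 71.1%, 70.2% and 70.6%, against 77.9%, 64.3%, 61.9%, 68.3% and 65.1% in 6H control samples, so that controls lay both above and below the LPS range. The difference was 2.41 points (95% interval -5.32 to 8.30 from the exact permutation test).

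The eighth CpG, 44956825, was highly methylated in every sample, between 91.7% and 96.7%. It held 93.7%, 92.8%, 93.2%, 94.0% and 94.7% in 3H LPS samples, against 92.6%, 94.3%, 93.7%, 95.1% and 96.0% in 3H control samples. In the 6H set it held 96.0%, 94.3%, 94.3%, 93.9% and 91.7% in LPS samples, against 96.7%, 92.9%, 91.8%, 95.0% and 93.5% in control samples. All groups overlapped. The difference was -0.675 points in the 3H set (95% interval -2.33 to 0.994) and 0.0783 points in the 6H set (95% interval -2.77 to 2.55), both intervals from the exact permutation test.

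The ninth CpG, 44956872, was at one of 2 levels, with no sample in the 42.4 points between them. It was 0.131%, 0.193%, 0.376%, 45.1% and 0.176% in 3H LPS replicates 1 to 5, against 0.271%, 48.8%, 45.0%, 44.2% and 47.6% in 3H control replicates 1 to 5. One sample of each 3H group was at the level of the other group's majority, LPS replicate 4 at the upper and control replicate 1 at the lower level. In the 6H set it was 0.336%, 0.290%, 0.337%, 0.186% and 0.228% in LPS replicates 1 to 5, against 47.7%, 42.8%, 46.6%, 44.1% and 45.5% in control replicates 1 to 5. These groups did not overlap, as was so at 1.48% of all CpGs tested in that set. Over the series the upper level held 10 samples (1 of 3H LPS, 4 of 3H control, 0 of 6H LPS and 5 of 6H control) and the lower level the other 10.

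Counting error in each sample's level at this CpG was small, and the intervals here cover that error only. The 95% Clopper-Pearson interval of 3H LPS replicate 4, from 895 methylated of 1986 reads, was 42.9% to 47.3%, and that of 3H control replicate 1, from 33 of 12199 reads, was 0.186% to 0.380%. Within 6H LPS the SD between samples was 0.868 times the counting SD, so at the lower level samples of that group did not differ beyond counting error. Bisulfite reads carry T both for an unmethylated cytosine and for a T in the genomic sequence, and the deposited tables cannot tell these apart, so the values at 44956872 are shares of reads with C. Whether the fish differ in sequence at this position was not tested.

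At 44956872 the 6H difference was -45.1 points (95% interval -46.9 to -43.1 from the exact permutation test), or -8.21 in log2 odds of methylation (edgeR, adjusted p = 0.00256). That interval takes the groups to differ by a shift alone, while their SDs were far apart, so its coverage may not be 95%. The exact permutation test gave 0.00794, the smallest p that 5 samples against 5 allow, which over 135 CpGs adjusts to 0.536. In the 3H set the difference was -28.0 points and -6.78 in log2 odds (edgeR, adjusted p = 0.0609; exact permutation p = 0.0794). The exact permutation p in the 3H set adjusts to 0.595. The 3H adjusted p was 0.000879 without 3H LPS replicate 4 and 0.00225 without 3H control replicate 1 (edgeR). Each of these libraries lay at the level of the other group's majority, so leaving it out widens the difference. Without any 1 other 3H sample the adjusted p rose above 0.0609 (edgeR). Fitting only the 3H samples raised it to 0.354 (edgeR), and limma gave 0.115. The replicate block and a minimum of 5 reads raised it as well. The value of 0.0609 thus depended on having the 6H samples in the fit. A minimum of 30 or 100 reads, or coverage in all samples, lowered the 3H adjusted p slightly. None of these alternatives gave a call. With both sets in 1 fit and the set as a covariate, 1 of 9 CpGs was called, again the ninth and again the only call among all 135 (0.741%). Of the 9 it alone had an unadjusted edgeR p under 0.05, against 2.96% of all. There the difference was -36.5 points and -7.62 in log2 odds (edgeR, adjusted p = 0.000139), and the exact permutation test within sets gave an adjusted p of 0.0850. At the first 8 CpGs the difference over both sets lay between -0.298 and 1.63 points, with adjusted p from 0.995 to 1 (edgeR).

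Whether the LPS difference itself changed between the sets was tested as an interaction, and 0 of 9 CpGs was called by edgeR where 0.741% of all CpGs were. limma called 1 of 135 and the exact permutation test 0 of 135, and none of the 9 had an unadjusted edgeR p under 0.05, against 11.1% of all CpGs. At the ninth CpG the difference of differences (6H minus 3H) was -1.43 in log2 odds (edgeR, adjusted p = 0.836). At the first 8 it was above 0 throughout, between 0.753 and 4.43 points, with adjusted p from 0.794 to 0.978 (edgeR). The largest was at 44956550, where the LPS difference was 3.39 points in the 6H set and -1.04 points in the 3H set.

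The sets were also compared within each treatment, and these comparisons share samples with those above. Between 6H and 3H controls 0 of 9 CpGs was called, against 0.0% of all tested (edgeR and limma alike), and 0 of 9 had an unadjusted edgeR p under 0.05, against 8.89% of all. The exact permutation test gave no call either, but its smallest p allows a single CpG none after adjustment. Differences (6H minus 3H) at the first 8 CpGs lay between -3.67 and -0.399 points there. The largest of these was at 44956563, with 56.2% ± 4.78 in 6H controls and 59.9% ± 4.44 in 3H controls (SD, n = 5 each; exact permutation p = 0.238). Between 6H and 3H LPS samples 0 of 9 was called either, against 0.0% of all tested, with 0 of 9 at an unadjusted edgeR p under 0.05 and 9.63% of all. Differences at the first 8 CpGs lay there between -0.0687 and 2.37 points.

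Neighbouring CpGs varied together across samples, where the 2 values of a sample share their library, their amplicon and in part their reads. How far this sharing moves the 2 values together was not tested. Over the 8 CpGs with a single range of values there are 28 pairs, and for 26 of them Pearson's r over 20 samples passed an adjusted p of 0.05 (permutation test, Benjamini-Hochberg over all 1157 pairs of CpGs that share an amplicon), against 18.1% of all such pairs. By Spearman's rho 22 of the 28 passed, against 10.2% of all pairs. By Pearson's r the share differed widely between amplicons. In the nearly unmethylated amplicons of chromosomes 3, 5 (from 67992821) and 23, the pairs that passed were 7 of 325, 5 of 171 and 3 of 171. In those of chromosomes 5 (from 44944720), 18, 19 and 24 they were 70 of 276, 87 of 105, 5 of 15 and 6 of 66. The 18.1% and 10.2% pool all amplicons, and the part of the methylation level in these shares was not tested. All 21 pairs among the first 7 CpGs passed, with r between 0.871 and 0.972 and a median of 0.935. Each had a raw permutation p of 1e-05, the smallest that 100000 permutations can give, and an adjusted p of 0.000463.

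The neighbouring pairs ran as follows. Pearson's r was 0.913 for 44956550 with 44956563, 0.923 for 44956563 with 44956574 and 0.948 for 44956574 with 44956589. It was 0.917 for 44956589 with 44956616, 0.951 for 44956616 with 44956641 and 0.966 for 44956641 with 44956647, the pair only 6 bp apart. Spearman's rho for these 6 pairs lay between 0.905 and 0.967, with an adjusted permutation p of 0.000526 each. The outermost pair, 44956550 with 44956647 at 97 bp, had r = 0.933, within the range of the neighbouring pairs. The lowest r among the first 7 was that of 44956550 with 44956641, at 0.871.

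The eighth CpG followed the first 7 less closely. Its r with them lay between 0.554 and 0.683, and 5 of these 7 pairs passed, the exceptions being 44956563 (r = 0.562, permutation p adjusted 0.0526) and 44956641 (r = 0.554, permutation p adjusted 0.0591). With its neighbour 44956647, 178 bp away, r was 0.634 (permutation p = 0.00289, adjusted 0.0235) and rho 0.584 (permutation p adjusted 0.0655). By Spearman's rho only the pair with 44956550 passed (rho = 0.624, permutation p adjusted 0.0408). Whether r differs between the pairs with the eighth CpG and those of the first 7 was not tested, and the eighth also had the smallest SD of these 8 CpGs.

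**Figure D3:**
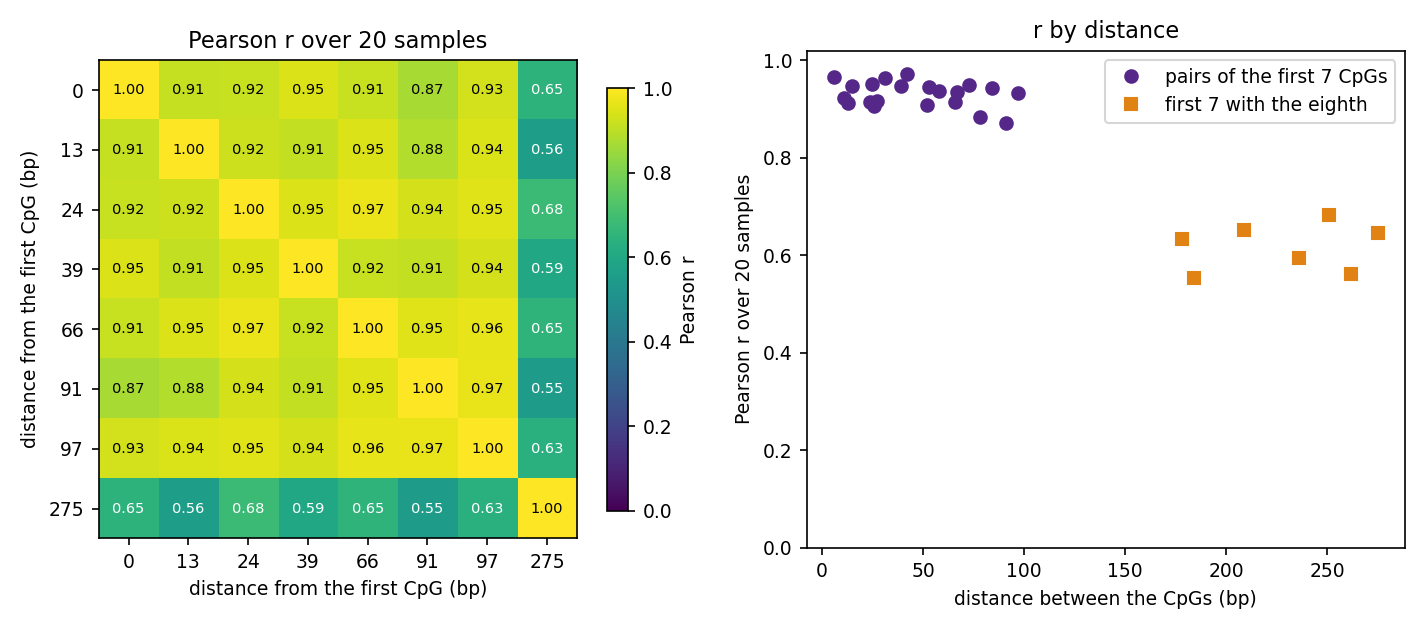
Left, Pearson r over 20 samples for each pair of the first 8 CpGs, by distance from the first CpG in bp, with r as colour and number; right, the same r against the distance between the CpGs in bp. Pairs of the first 7 CpGs (circles) lie between 0.871 and 0.972 at distances up to 97 bp, and pairs with the eighth (squares) between 0.554 and 0.683 at 178 bp or more.

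The relation among the first 7 CpGs was present within groups as well as between them. On deviations from group means r lay between 0.902 and 0.971. Within the 10 samples of the 3H set it lay between 0.867 and 0.982, and within the 10 of the 6H set between 0.868 and 0.983, with 21 of 21 pairs passing in each. Without the 2 samples farthest from the median of the first CpG of a pair, r was still 0.820 to 0.965. After removing the relation with the logarithm of the amplicon's reads, r was 0.859 to 0.970. With the logarithm of the library's calls in their place it was 0.847 to 0.967.

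With the eighth CpG no pair passed within a set. Within the 3H set r was 0.319 to 0.569 and within the 6H set 0.612 to 0.779, and 0 of 7 pairs passed in either (permutation tests, 10 samples each). Without the 2 farthest samples it was 0.306 to 0.614, though leaving out the extremes of a CpG by itself narrows its range and can lower r. The pair 44956647 with 44956825 lost its call on leaving out 3H control replicate 1 (r = 0.616), 3H control replicate 5 (r = 0.570), 6H control replicate 1 (r = 0.548) or 6H control replicate 3 (r = 0.573). Leaving out 6H control replicate 1 left 1 of the 7 pairs with a call, and leaving out 3H control replicate 1 left 2. In the other direction, 7 of 7 passed without 3H LPS replicate 2, 3H LPS replicate 5 or 6H LPS replicate 5. On deviations from group means 7 of 7 passed as well, with r between 0.576 and 0.690. After removing the relation with the logarithm of the amplicon's reads 6 of 7 passed (r = 0.551 to 0.682). With the logarithm of the library's calls 4 of 7 passed (r = 0.477 to 0.626).

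For the ninth CpG a pooled correlation is not given, because its samples fall on separate levels. Within the 10 samples of the upper level its r with the other 8 CpGs lay between 0.198 and 0.355, and within the 10 of the lower level between 0.0642 and 0.428. None of these 16 relations passed, the lowest raw permutation p being 0.218 and the lowest adjusted 0.634. The samples that stood apart from their group at this CpG lay inside its range at the first 7. 3H LPS replicate 4 had a first-7 mean of 63.9%, inside the 58.0% to 65.5% of its group, and 3H control replicate 1 had 59.9%, inside the 59.7% to 68.9% of its group. These ranges overlap and both values lie inside each of them, so they cannot show to which group a sample belongs.

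The other mostly methylated amplicons of the series, on chromosomes 18 and 19, give a scale for these values. The chromosome 19 amplicon also had 1 CpG, of 7, on separate levels. The chromosome 18 amplicon had 0 among the 15 of its 18 CpGs that were measured in all samples. Over the samples the CpG on separate levels averaged 2.21% in the chromosome 19 amplicon and 23.0% in this one. The samples are thus not split alike at the 2 CpGs. Leaving out CpGs on separate levels, the between-sample SD per CpG had a median of 3.98 points in the chromosome 10 amplicon, 2.55 in the chromosome 18 amplicon (15 CpGs measured in all samples) and 2.11 in the chromosome 19 amplicon (6 CpGs). The mean levels of these CpGs were 66.7%, 85.4% and 86.6%, so the SDs were taken at unlike levels. Within the chromosome 10 amplicon the eighth CpG, at 94.0%, had an SD of 1.34. The part of the level in these SDs was not tested. In the chromosome 18 amplicon 87 of 105 pairs passed by Pearson's r, with r between 0.680 and 0.965, and in the chromosome 19 amplicon 5 of 15, with r between 0.115 and 0.776. The first-7 mean had r = -0.108 (rho = 0.0301) with the mean of the chromosome 18 amplicon and r = 0.521 (rho = 0.587) with that of the chromosome 19 amplicon over 20 samples. These last values are descriptions; the points are libraries that share preparation and depth.

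The common level of the first 7 CpGs was also set beside depth. Over 20 samples the first-7 mean had r = -0.400 and rho = -0.546 with the logarithm of the library's calls, and r = -0.705 without the 2 samples farthest from the median of the calls. The relation had the same sign within the sets, with r = -0.535 in the 3H set and r = -0.341 in the 6H set. With the amplicon's own reads it was r = -0.311 and rho = -0.256, and r = -0.161 without the 2 samples farthest from the median. With the eighth CpG the first-7 mean had r = 0.637 and rho = 0.564. These relations are given as descriptions with no p, and the part of depth in the differences between groups was not tested.

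**Figure D4:**
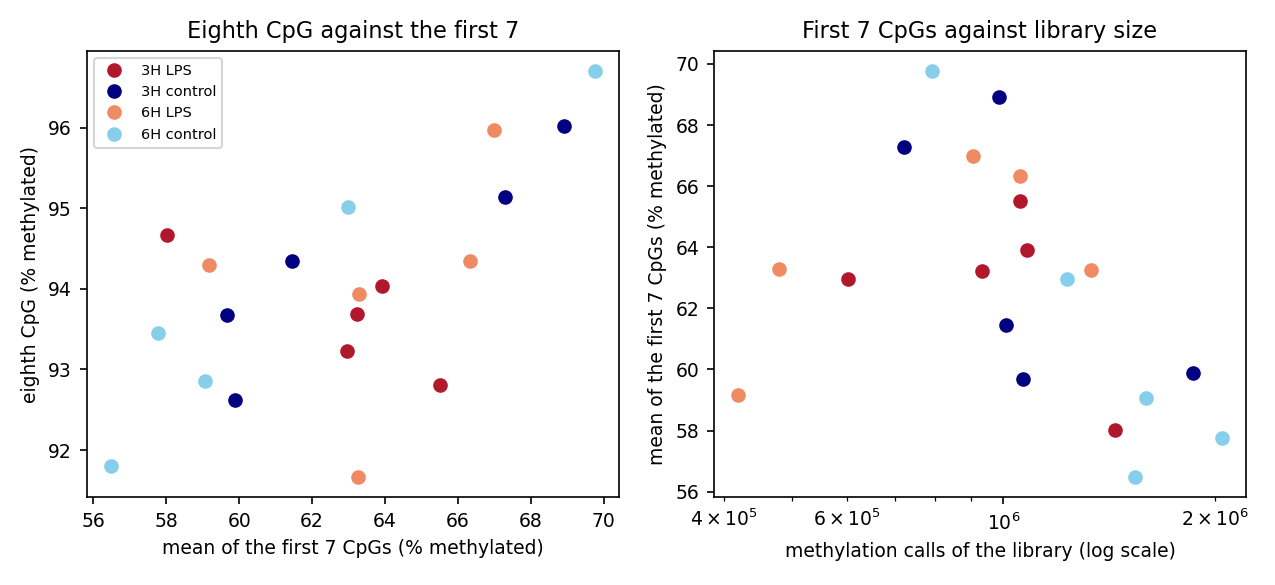
Left, percentage of methylated reads at the eighth CpG against the mean of the first 7 CpGs; right, the mean of the first 7 CpGs against the methylation calls of the library on a log scale; each point is 1 of the 20 samples, coloured by group. The eighth CpG tends to be higher where the first 7 are (r = 0.637), and the first-7 mean tends to be lower in larger libraries (r = -0.400); no axis of percentages starts at 0.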

How the data were processed

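Per the submitters' processing notes, the tools were Bismark 16.0, Bowtie2, FastQC 0.11.6 and Trim Galore 0.4.5, and the build GRCz11. The deposited tables give, per CpG and sample, read counts of each state, not normalized, beside a percent of methylated reads. From the deposited counts, CpGs with at least 10 reads in at least 4 of 5 samples of each of 4 groups were kept (135 CpGs), and a sample under 10 reads was left out at that CpG. No conversion control is given in the sources used here, and unconverted cytosine would raise all levels.

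Methylated and unmethylated counts were fitted with edgeR 4.0.16 (quasi-likelihood, 1 fit over all 20 samples; R 4.3.3), adjusted by Benjamini-Hochberg over 135 CpGs. Alternatives were limma 3.58.1 on log2 ratios (0.5 added), exact two-sided permutation tests per CpG, a minimum of 5, 30 or 100 reads, a requirement of coverage in all samples, only the samples compared, a replicate block, and each sample left out in turn. Correlations used 100000 permutations and were adjusted over all 1157 pairs within amplicons, in place of the member pairs alone as first planned. A CpG counted as being on separate levels where a gap of over 10 points left at least 2 samples on each side. The tests were checked on simulated data, for edgeR with shifts in odds far smaller than the difference at the ninth CpG. That check does not cover a CpG on separate levels.

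Every CpG meeting the rule is named. The members, lists and tests were chosen with earlier results of these data known. No samples had identical values.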

Additional observations from a re-analysis of the deposited data

Results flagged for a closer look

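In groups of 5 samples, Dixon's criterion for a value far from the others was applied to 52 groups of values, of which it marked 3, where chance gives about 2.6 at 1 in 20. At 44956872, 3H LPS replicate 4 stood at 45.1%, against 0.131% to 0.376% in the other 4 samples of its group. At the same CpG 3H control replicate 1 stood at 0.271%, against 44.2% to 48.8% in the other 4. The third is a depth, 27409 reads per CpG of the amplicon in 6H control replicate 5, against 6651 to 10595 in the other 6H controls.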

How the results depend on the processing

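Of the counts of called CpGs, those of the 6H set and of both sets together, 1 of 9 each, became 0 under the exact permutation test. In 1 set that test cannot go below 0.00794, which for a single CpG does not survive adjustment over 135. The count in the 3H set ranged from 0 to 1 on leaving out samples in turn, being 1 without 3H LPS replicate 4 or 3H control replicate 1. The labels do not explain the number that LPS and control samples share. It was not taken as a pairing, since not every same-numbered pair correlated over 0.1, a rule that a real pairing can also miss. In the 3H set 3 of 5 pairs passed 0.1 (-0.537 to 0.529) and in the 6H set 4 of 5 (-0.027 to 0.600). The check thus does not decide whether these samples were paired. Each sample had 5 candidates in the other group of its set. It correlated best with its own number in 2 of 10 cases in the 3H set and 3 of 10 in the 6H set. With the replicate block the calls were 0 in the 3H set, 1 in the 6H set, 1 over both, 0 for their difference and 0 between sets. The mean over 9 CpGs differed by -2.98 points in the 6H set and -3.36 over both sets. As the median over CpGs these were 2.86 and 0.739, and without 44956872 they were 2.28 and 0.785, by construction, since that CpG carries the negative difference. Signs near 0 turned on leaving out samples: in the 3H set log2 odds ranged from -0.13 to 0.0083 at 44956550, from -0.076 to 0.049 at 44956589, from -0.16 to 0.014 at 44956616, from -0.041 to 0.17 at 44956641 and from -0.11 to 0.093 at 44956647. In the 6H set 44956825 ranged from -0.14 to 0.20, and its main value of -0.0044 had the opposite sign to the 0.0783 points of the exact permutation test. At 44956872 the 6H minus 3H value ranged from -0.061 to 0.97 in controls and from -1.29 to 0.39 in LPS samples. All 21 pairs of the first 7 CpGs were called in every alternative that gave calls. The alternatives with residuals from depth were chosen after seeing the data. At the first 8 CpGs the SD between samples was 3.83 to 6.45 times the counting SD, which takes reads as independent. The part of read depth in that spread was not tested.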
